A study of Mus musculus with 18 samples.

Results

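The genes described here belong to the urea cycle and to the breakdown of amino acids in periportal hepatocytes, the liver cells nearest the incoming portal blood. The set has 10 named genes: Cps1, Otc, Ass1, Asl, Arg1, Hal, Uroc1, Sds, Gls2 and Slc25a15. A gene was taken from the probe sets, the groups of short probes that report 1 transcript, whose platform annotation names that symbol alone. That held for 8 of the 10 genes, with 12 probe sets between them, and all 8 passed the filter on dim signals, out of 12169 genes tested. Sds, which deaminates serine, and Gls2, the liver glutaminase, had no such probe set in the annotation used and were not analysed here. The brightest probe set stood for its gene, and Otc, Slc25a15 and Uroc1 had further probe sets.

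Liver RNA came from 18 female B6C3F1 mice, a hybrid laboratory strain, in 6 groups of 3 animals. All were 5 weeks old at the start, were exposed for 13 weeks and are labelled 18 weeks old at sampling. BF mice were gavaged with 2,3-benzofuran at 240 mg/kg, dissolved in corn oil, on 5 days of each week, and corn oil mice were gavaged with the vehicle alone at 5 ml/kg on those days. NDA mice ate 1,5-naphthalenediamine at 2000 ppm, NEDD mice ate N-(1-naphthyl)ethylenediamine dihydrochloride at 2000 ppm and PCNB mice ate pentachloronitrobenzene at 8187 ppm, all 7 days per week, and feed control mice ate plain feed. The labels class BF and NDA as positive for liver tumours and NEDD and PCNB as negative, and the series title gives the search for expression markers of liver tumours as the purpose. Each group is 1 dose at 1 time. NDA, NEDD and PCNB share their 3 feed controls, so their comparisons are not independent.

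The urea cycle turns ammonia from amino acid breakdown into urea for excretion. It starts in the mitochondrion, where Cps1 and Otc act and from which Slc25a15 exchanges citrulline for ornithine, and continues in the cytosol with Ass1, Asl and Arg1. Hal and Uroc1 catalyse successive steps of histidine breakdown. In the liver these enzymes are strongest toward the portal vein, while glutamine synthetase, Glul, captures the remaining ammonia around the central vein.

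RefSeq promoter windows of build GRCm38.p6, holding 250 bases before and 50 after a gene's start, were found for 5 of the genes: Ass1, Uroc1, Slc25a15, Hal and Otc. Those of Hal, Uroc1 and Otc are shown because a probe set of each passed the test in at least 1 chemical; Slc25a15 did too but has 2 annotated starts, and its windows are not shown. Both strands were searched, and matches are in capitals. The cAMP response element was TGACGTCA. Its half-site lies within it and was the stretch TGACG, which can also overlap the antioxidant core. The motif searched for C/EBP factors was TTGCNNAA. For the core of the antioxidant response element it was TGACNNNGC. The TATA box was searched as TATAAA.
Hal, chr10:93488518-93488817, plus strand: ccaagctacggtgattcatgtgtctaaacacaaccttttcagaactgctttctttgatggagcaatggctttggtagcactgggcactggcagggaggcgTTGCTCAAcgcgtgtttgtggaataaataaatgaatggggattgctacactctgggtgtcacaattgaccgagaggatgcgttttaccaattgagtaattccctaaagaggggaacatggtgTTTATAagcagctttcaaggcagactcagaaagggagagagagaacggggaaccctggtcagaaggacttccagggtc
Uroc1, chr6:90333039-90333338, plus strand: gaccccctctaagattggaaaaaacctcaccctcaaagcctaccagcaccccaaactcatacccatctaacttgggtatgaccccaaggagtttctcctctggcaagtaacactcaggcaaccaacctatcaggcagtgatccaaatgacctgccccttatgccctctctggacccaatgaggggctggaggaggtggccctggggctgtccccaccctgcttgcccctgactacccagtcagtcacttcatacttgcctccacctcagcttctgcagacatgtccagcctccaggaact
Otc, chrX:10252055-10252354, plus strand: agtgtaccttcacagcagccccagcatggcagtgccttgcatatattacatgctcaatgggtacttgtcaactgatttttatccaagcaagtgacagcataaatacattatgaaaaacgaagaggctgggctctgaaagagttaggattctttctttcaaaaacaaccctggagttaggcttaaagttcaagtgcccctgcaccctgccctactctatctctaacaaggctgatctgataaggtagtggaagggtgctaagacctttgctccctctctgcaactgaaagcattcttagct
Hal held the C/EBP motif at position -150 from its start and TATAAA, read on the minus strand, at -28. The windows of Uroc1, Otc, Ass1 and Slc25a15 held none of these letters. Among 32851 promoter windows, 10.8% held TTGCNNAA, 13.6% TATAAA, 12.4% TGACNNNGC, 20.8% TGACG and 1.79% TGACGTCA.

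Signals are log2 values as deposited. The treated arrays had a brighter upper part of the signal distribution than the controls, with upper quartiles between 6.32 and 6.41 in treated arrays and between 6.10 and 6.26 in control arrays. Over the 12169 genes, the median log2 change was 0.11 in BF against corn oil, and 0.18 in NDA, 0.15 in NEDD and 0.15 in PCNB against feed control, beside 0.04 in corn oil against feed control. Each relative change below is the fitted log2 change minus that median, with the standard error of the fit and n = 3 arrays per group. Unless quantile normalization or centring is named, an adjusted p beside a relative change tests the deposited change, not the relative one. Calls use the deposited scale and an adjusted p under 0.05 (limma, Benjamini-Hochberg over all tested genes), and a call holds on all 3 scales if it is also made in the same direction after quantile normalization and after each array was centred on its own median over these genes. On the deposited scale 3013 genes were called higher and 923 lower in BF, 1537 and 1304 after quantile normalization and 1367 and 2619 after centring. In NDA these pairs were 3836 and 1023, 1485 and 1477, and 1122 and 3025. In NEDD they were 3004 and 532, 966 and 790, and 668 and 1836, and in PCNB 1778 and 471, 367 and 526, and 312 and 1627. RNA quality differed as well: the beta-actin 3' minus 5' log2 signal was 1.45 to 1.85 in NEDD livers and 0.90 to 0.99 in feed controls, and 5 arrays (BF 6 and 10, NDA 4, NEDD 12 and 14) had the highest 18S ribosomal RNA signal, 7.93 to 11.56. The RNA integrity number was 8.3 to 9.4 in BF and 7.4 to 8.8 in corn oil livers. An index of clock genes was -1.97 to -0.83 in BF and -0.84 to 2.40 in corn oil livers.

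In BF livers all 8 measured genes lay below the median change of all genes, and 1, Cps1, passed the test. Cps1, carbamoyl phosphate synthetase, makes the first and rate-limiting product of the cycle. The median relative change of the 8 genes was -0.27, with a range of -0.53 to -0.07, and 1 called gene of 8 stands beside 32.3% of all genes called in this comparison and 16.7% called the same way on all 3 scales. Over the alternatives the relative changes of Arg1 and Uroc1 each reached 0.03, so their place below the median depended on the setting. Uroc1 reached 0.015 when single arrays were left out. The median deposited change was 0.08 in genes with a mean of 11 to 12 and -0.05 from 13 up. Arg1, with a mean of 13.13, had a deposited change of -0.01. In a bulk sample, fewer hepatocytes of a zone and less RNA per cell cannot be told apart.

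Cps1 (chr1:67122426-67231267) had log2 signals of 12.77, 12.91 and 12.93 in BF livers, against 12.98, 13.10 and 13.15 in corn oil livers. All BF arrays lay below all corn oil arrays, and BF 6 was the lowest of the series. The mean was 12.87 ± 0.089 in BF and 13.08 ± 0.085 in corn oil (SD), a relative change of -0.31 ± 0.066 (adjusted p = 0.0241), and the call held on all 3 scales. Genes with a mean signal of 13 or more had a median change of -0.05 on the deposited scale, against -0.21 for Cps1. The call ended without BF 6 (adjusted p = 0.118), without corn oil 24 (0.0759) and without corn oil 25 (0.0984). With the RNA integrity number in the model it was 0.101 and with the index of clock genes 0.184, and over all 28 alternatives it ranged from 0.000237 to 0.328 with the relative change between -0.34 and -0.21.

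Otc (chrX:10252230-10321024), which joins carbamoyl phosphate to ornithine, gave 11.69, 12.09 and 12.00 in BF livers, against 12.02, 12.18 and 12.29 in corn oil livers. The groups overlapped, and the relative change was -0.35 ± 0.098. The deposited change of -0.24 missed the threshold (adjusted p = 0.0701). Otc passed it after quantile normalization (0.0160) and centring (0.00489). The second Otc probe set, tested among all 24338 probe sets kept, gave 10.71, 11.01 and 10.92 in BF livers, against 11.33, 11.22 and 11.44 in corn oil livers, with no overlap. Its relative change was -0.56 ± 0.11 (adjusted p = 0.00545, range over 24 alternatives 9.95e-05 to 0.231), where 25.9% of probe sets were called, and it kept the call without each single array but not when the 5 arrays brightest for 18S were left out, which leaves 1 BF array. The third and dimmest Otc probe set did not pass (relative change -0.25 ± 0.14, adjusted p = 0.468). Both brighter probe sets of Otc gave a negative relative change in BF, and their calls differed.

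Asl (chr5:130011258-130024381), the argininosuccinate lyase, gave 11.16, 11.47 and 11.33 in BF livers, against 11.39, 11.62 and 11.72 in corn oil livers. The arrays overlapped and the relative change of -0.36 ± 0.12 was not called (adjusted p = 0.112), though it was after quantile normalization (0.0435) and centring (0.0129). Slc25a15 (chr8:22375550-22398621), at -0.21 ± 0.087, was called only after centring (0.0173). Arg1, Hal and Uroc1 had relative changes of -0.12 ± 0.083, -0.22 ± 0.13 and -0.07 ± 0.18, and none of these was called on any of the 3 scales.

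Ass1 (chr2:31470270-31520670), the argininosuccinate synthetase, is the least certain of the measured genes. The probe set given to Ass1 alone was dim, with log2 signals of 6.48 to 8.27, and it gave -0.53 ± 0.26 in BF, which did not pass (adjusted p = 0.231). A bright probe set is annotated to Ass1 and the near-identical gene Gm5424 together and cannot separate them. It gave 12.77, 13.00 and 13.15 in BF livers, against 13.10, 13.31 and 13.38 in corn oil livers. Its relative change was -0.40 ± 0.11, with an adjusted p of 0.0600 among all probe sets, and none of its 5 comparisons with a control was called.

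**Figure D1:**
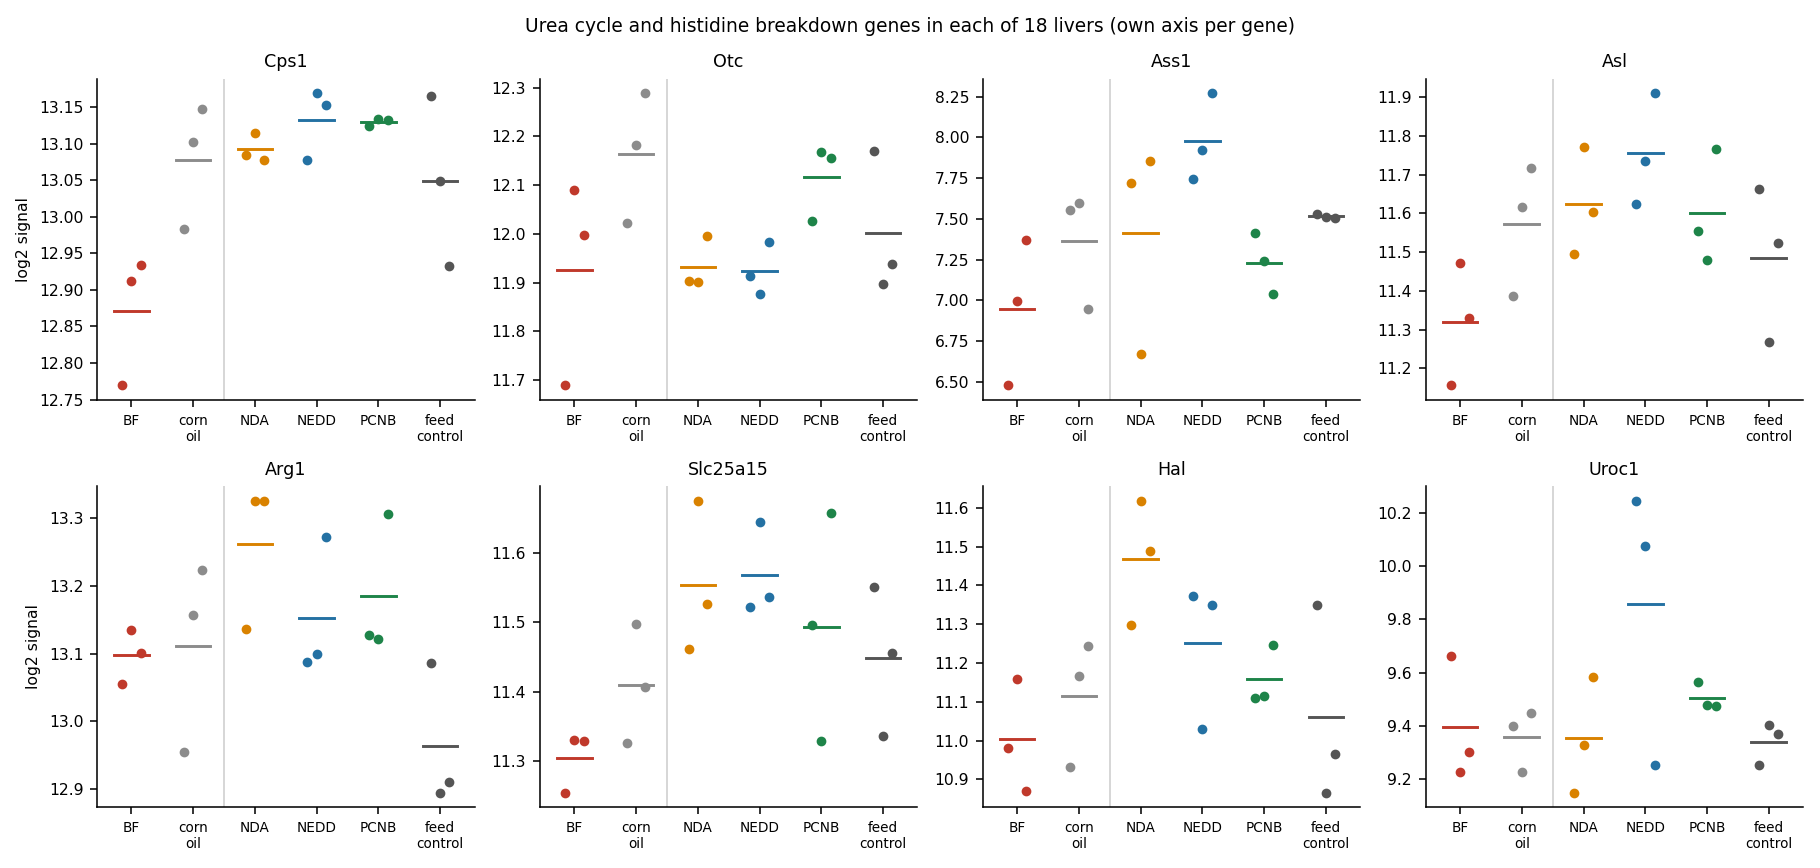
Log2 signal (y axis, a separate range for each gene) of the brightest probe set of the 8 measured genes in each liver, by group (x axis). Points are animals and bars group means; the 3 BF points of Cps1 lie below its 3 corn oil points, and the NDA points of Arg1 lie above its feed controls.

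In NDA livers 2 of the 8 genes, Arg1 and Hal, were called higher on the deposited scale and none lower, beside 39.9% of all genes called. Neither call held on all 3 scales, beside 15.9% of all genes that did. Relative to the median change of all genes, 6 of the 8 lay below and 2 above, with a median of -0.10.

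Arg1 (chr10:24915207-24927470), the arginase that releases urea, gave 13.14, 13.33 and 13.33 in NDA livers, against 13.09, 12.89 and 12.91 in feed controls. All NDA arrays lay above all feed controls. The change was 0.30 ± 0.083 on the deposited scale (adjusted p = 0.00977), of which 0.12 remained relative to the median of all genes, and the adjusted p was 0.0631 after quantile normalization and 0.722 after centring. Leaving out single arrays kept the call and gave relative changes between 0.05 (without feed control 28) and 0.19 (without NDA 2), with 0.08 without NDA 5. Genes with a mean of 13 or more had a median deposited change of 0.05 in this comparison.

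Hal (chr10:93488768-93516761), histidine ammonia-lyase, gave 11.30, 11.62 and 11.49 in NDA livers, against 11.35, 10.87 and 10.97 in feed controls. Feed control 27 lay above NDA 2, so the groups overlapped. The relative change was 0.23 ± 0.13 (adjusted p = 0.0184), and the call ended after quantile normalization (0.125), after centring (0.364), and without NDA 4 (0.0848), feed control 28 (0.0770) or feed control 29 (0.0709). Without feed control 28 the relative change was 0.10.

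Cps1 and Otc had relative changes of -0.13 ± 0.066 and -0.24 ± 0.098 in NDA and were called lower only after centring (adjusted p = 0.0159 and 0.0237). Their deposited changes were 0.04 and -0.07, so the direction of Cps1 depended on the scale. Asl, Slc25a15, Uroc1 and Ass1 had relative changes between -0.27 and -0.04 and were not called on any scale, and Ass1 was at 0.12 without NDA 4.

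In NEDD livers 1 of 8 genes, Uroc1, was called, beside 29.1% of all genes, and it did not hold on all 3 scales, beside 9.01%. Uroc1 (chr6:90333239-90364551), urocanase, gave 10.25, 10.07 and 9.25 in NEDD livers, against 9.25, 9.40 and 9.37 in feed controls. NEDD 12 and 14 stood far above the rest and NEDD 15 lay at the level of the controls. The relative change was 0.36 ± 0.18 (adjusted p = 0.0437), and NEDD 12 and 14 are also among the arrays with the highest 18S signal; the part of RNA quality in this value was not tested beyond the settings given here. Without the 5 arrays with that signal the relative change was -0.23 (adjusted p = 0.774). The call ended without NEDD 12 (relative change 0.18, adjusted p = 0.233) and without NEDD 14 (0.25, 0.146), while without NEDD 15 it was 0.66. It also ended without feed control 27 (0.101), 28 (0.0585) or 29 (0.0942), corn oil 25 (0.0510) or PCNB 16 (0.0505), 18 (0.0527) or 20 (0.0510). Over all alternatives the adjusted p ranged from 0.00270 to 0.774. Otc in NEDD was called lower only after centring (relative change -0.23 ± 0.098, adjusted p 0.0480).

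The 2 Uroc1 probe sets went opposite ways in NEDD. The dimmer one, tested among all probe sets, gave 8.68, 8.62 and 8.88 in NEDD livers, against 9.37, 9.01 and 9.93 in feed controls, with no overlap. Its relative change was -0.86 ± 0.17 (adjusted p = 0.00721), where 24.5% of probe sets were called. By its type, the brighter probe set can also detect other transcripts that share its sequence, so the 2 are not interchangeable measures of urocanase.

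The same dimmer Uroc1 probe set was called lower in each of the 4 chemicals and on all 3 scales. In BF livers it gave 8.48, 8.67 and 8.80, against 9.16, 9.18 and 9.47 in corn oil livers, a relative change of -0.73 ± 0.17 (adjusted p = 0.0113). In NDA livers it gave 8.95, 8.85 and 9.03, against the feed controls above, with overlap at feed control 28 and a relative change of -0.67 ± 0.17 (adjusted p = 0.0298, beside 33.8% of probe sets called). In PCNB livers it gave 8.84, 8.87 and 8.70, a relative change of -0.78 ± 0.17 (adjusted p = 0.0241, beside 13.2%).

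The 3 feed chemicals share the feed controls of this Uroc1 probe set, and feed control 29, at 9.93, was the highest array of the series for it. Without feed control 29 the relative change was -0.36 in NDA (adjusted p = 0.182) and -0.47 in PCNB (0.106), and both calls ended. They also ended without NDA 2 (0.0599) or NDA 4 (0.0884), and without PCNB 16 (0.0694), 18 (0.0579) or 20 (0.0621). In NEDD the call was kept without each single array and ended with RNA integrity (0.0995) or the beta-actin ratio (0.127) in the model and without the 5 arrays brightest for 18S (0.212). In BF, which has its own controls, the call ended without BF 6 (0.0532) or corn oil 25 (0.0570), with relative changes of -0.64 for both, and with the clock gene index in the model (0.173). Counting every setting, the call ended in 4 of 24 alternatives in BF and in 4 of 24 in NDA. Corn oil against feed control gave -0.20 ± 0.17 (adjusted p = 0.830).

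Slc25a15 was another gene whose probe sets parted in NEDD. The brighter one gave 11.52, 11.64 and 11.54 in NEDD livers, against 11.55, 11.34 and 11.46 in feed controls, a relative change of -0.03 ± 0.087 (adjusted p = 0.308). The dimmer one gave 8.40, 8.92 and 8.92 in NEDD livers, against 10.00, 9.30 and 9.59 in feed controls, with no overlap and a relative change of -1.04 ± 0.21 (adjusted p = 0.00844, range over 24 alternatives 0.00386 to 0.472). With the beta-actin 3' minus 5' signal in the model the relative change of the dimmer probe set was -0.44 (adjusted p = 0.472), and the call also ended with RNA integrity (0.118) or the clock index (0.0648) in the model and without NEDD 12 (0.0508). In BF it gave -0.61 ± 0.21, called only after quantile normalization and centring (adjusted p = 0.0943 as deposited). In the beta-actin measure the 3 NEDD arrays, at 1.45 to 1.85, and NDA 4, at 1.75, were the highest of the series. BF 10 followed at 1.29 and corn oil 25 at 1.18. Some other NDA, BF and PCNB arrays also lay above the highest feed control, at 0.99.

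**Figure D2:**
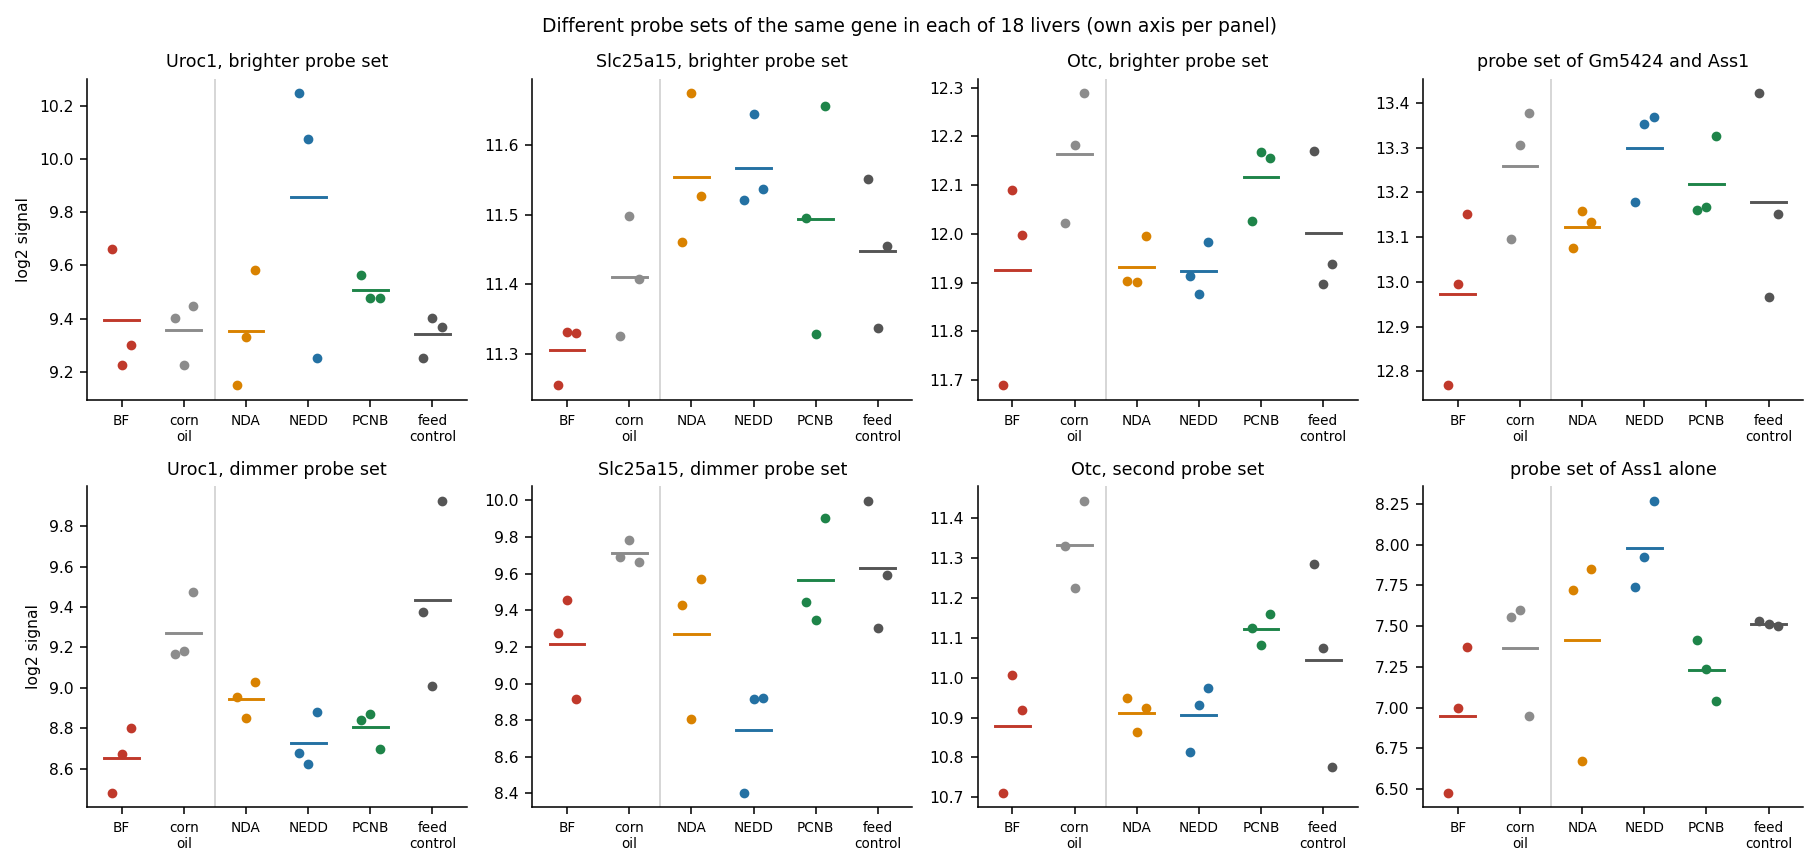
Log2 signal (y axis, a separate range per panel) of paired probe sets in each liver by group (x axis), the brighter above the dimmer. Points are animals and bars group means; the dimmer Uroc1 probe set lies lower in all treated groups than in their controls on average, which the brighter one does not show, and the dimmer Slc25a15 probe set is lowest in NEDD.

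In PCNB livers none of the 8 genes was called by limma, beside 18.5% of all genes, and 1 had an unadjusted p under 0.05. That was Arg1, with 13.13, 13.12 and 13.31 in PCNB livers, against 13.09, 12.89 and 12.91 in feed controls. The arrays did not overlap. The deposited change was 0.22 ± 0.083 (adjusted p = 0.0678), of which 0.07 remained relative to the median of all genes. Quantile normalization gave 0 calls too, and 5% of all genes were called the same way on all 3 scales. Cps1 was the steadiest, at 13.12, 13.13 and 13.13 in PCNB livers, with a 95% interval of its relative change from -0.21 to 0.07.

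In corn oil against feed control no gene of the 8 was called by limma and none had an unadjusted p under 0.05, beside 0.123% of all genes called and 0.0329% called on all 3 scales. The relative changes lay between -0.19 (Ass1) and 0.12 (Otc), with a median of 0.00.

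**Figure D3:**
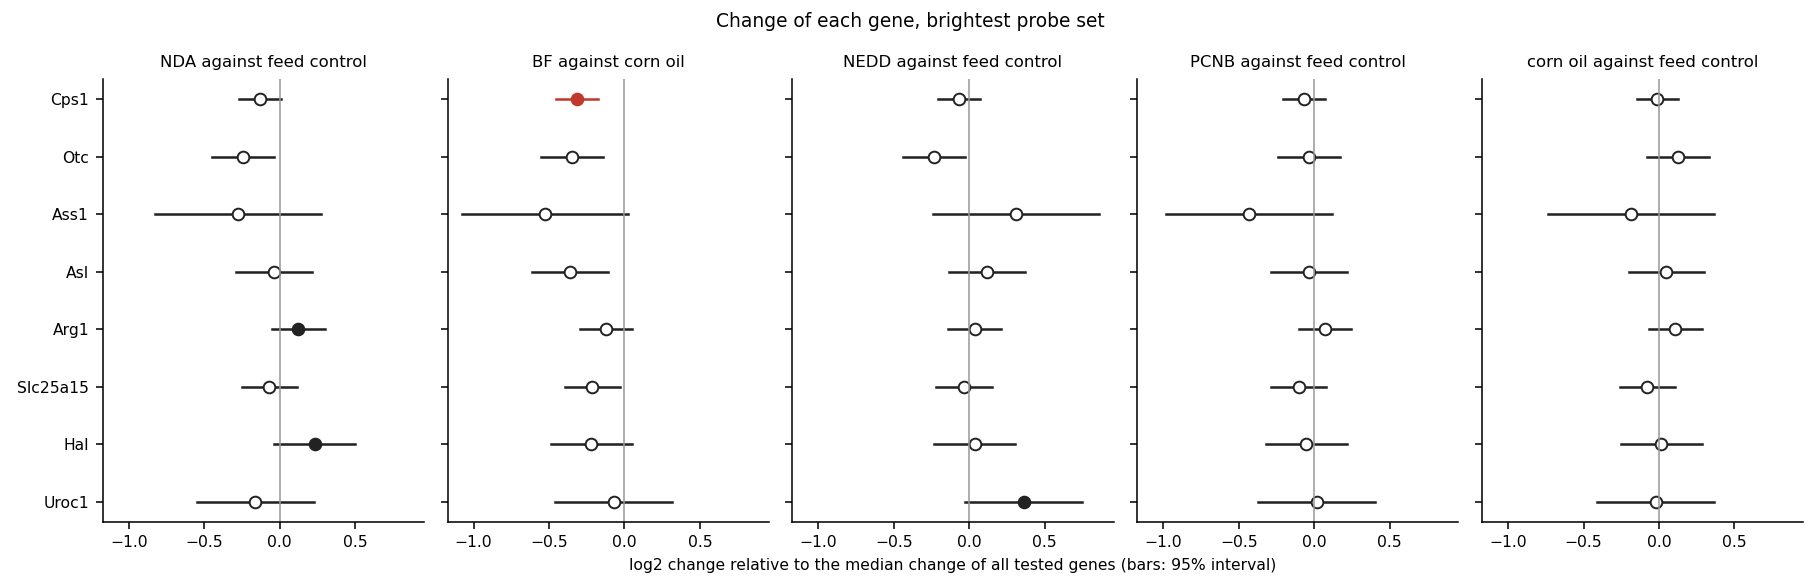
Log2 change of each gene's brightest probe set minus the median over the 12169 genes (x axis) with its 95% interval, by comparison (panels). Filled points were called on the deposited scale and the red point (Cps1 in BF) also on the other scales; all 8 points lie left of 0 in BF.

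Set against each other directly, the feed chemicals gave no call in these genes. By limma, none of the 8 was called in NDA against NEDD (5.47% of all genes), in NDA against PCNB (4.03%) or in NEDD against PCNB (2.69%), where 2, 1 and 1 had an unadjusted p under 0.05. For Cps1 the relative difference was -0.04 in NDA against NEDD with a 95% interval of -0.18 to 0.10. For Uroc1 it was -0.50 with an interval of -0.89 to -0.11 and an adjusted p of 0.123. Ass1 differed by 0.71 in NEDD against PCNB with no overlap of the arrays, an interval of 0.16 to 1.26 and an adjusted p of 0.140.

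The effect of BF was also set against the effect of NDA, each relative to its own control. None of the 8 was called, beside 0.961% of all genes, and 4 had an unadjusted p under 0.05. Hal differed most, at -0.49 ± 0.18 (adjusted p = 0.217), followed by Asl at -0.37 ± 0.17 (0.342). Arg1 and Cps1 differed by -0.29 ± 0.12 and -0.22 ± 0.093 (adjusted p = 0.252 and 0.251). So the calls of Cps1 in BF and of Arg1 and Hal in NDA are not shown to differ between the chemicals.

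The mean effect of the chemicals positive for liver tumours was finally set against that of the negative ones. None of the 8 passed, beside 7.2% of all genes, and 2 had an unadjusted p under 0.05. Cps1 came closest, at -0.16 ± 0.057 (adjusted p = 0.0934), followed by Asl at -0.25 ± 0.10 (0.166). The other 6 had adjusted p values of 0.251 or more.

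Over the 18 arrays, with arrays centred on their medians, several of the urea cycle genes varied together. Pearson's r was 0.88 between Asl and Slc25a15, 0.83 between Cps1 and Slc25a15, 0.82 between Cps1 and Asl, 0.81 between Asl and Arg1 and 0.78 between Cps1 and Otc. Uroc1, by its brighter probe set, had r between -0.17 and 0.24 with the other 7. These values describe arrays that share groups, labelling and scale, and are not a test.

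The gene most like Cps1 was Slc38a4, an amino acid transporter, with r = 0.94, followed by Faah and Krt42. Asl was most like Got1, the cytosolic aspartate aminotransferase (r = 0.94), then Ttc36 and Ahcy. Otc was most like Hsd11b1 (0.92), Maob and Rgn, and Slc25a15 was most like Agxt (0.89), Asl and Hgd. For Arg1 the leading gene was Zadh2 (0.86), for Hal Mindy1 (0.86), for Uroc1 Wsb1 (0.84) and for Ass1 Cln6 (0.80).

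Partners of the cycle were measured beside it. Slc25a13, the mitochondrial aspartate-glutamate carrier that supplies aspartate to Ass1, gave a mean of 9.91 ± 0.098 in BF and 10.29 ± 0.18 in corn oil (SD, n = 3). The arrays did not overlap, the relative change was -0.49 ± 0.13 (adjusted p = 0.0355) and the call held on all 3 scales, but it ended without each of BF 6, 8 and 10 and corn oil 24 and 25 (adjusted p between 0.0507 and 0.126). Over all 28 alternatives the Slc25a13 call ended in 8, with the relative change between -0.57 and -0.29. Its paralogue Slc25a12 was called higher in BF, at 0.48 ± 0.12 (adjusted p = 0.00202), but its second probe set gave -0.0073. Nags, which makes the activator that Cps1 needs, was called higher in NDA at 0.17 ± 0.13 (adjusted p = 0.0471), a call that ended in 20 of 28 alternatives, with adjusted p between 0.0205 and 0.638; without feed control 28 the relative change was 0.05 and without feed control 29 it was 0.26.

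Arg2, the second arginase, lay under the array medians with probe set means of 2.89 and 3.21 and did not pass the filter. Sdsl, a paralogue of Sds, was not analysed here. Glul was called lower in NDA, at -0.46 ± 0.11 (adjusted p = 0.0387), on all 3 scales but with overlapping arrays, and lower in NDA against PCNB, at -0.44 ± 0.11 (0.0359), without overlap. The first of these calls ended without NDA 4 (0.0677) or 5 (0.143) and feed control 27 (0.103) or 28 (0.158), and the second without NDA 4 (0.0920) or 5 (0.167) and PCNB 16 (0.142) or 18 (0.166). Over all 28 alternatives the first call ended in 9 (adjusted p up to 0.248) and the second in 10 (up to 0.192). Glul in BF was at -0.30 ± 0.11 with no overlap of the arrays, and was called lower after quantile normalization (0.0210) and centring (0.00435) but not on the deposited scale (adjusted p = 0.170).

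Histidine breakdown continues through Amdhd1 and Ftcd. Amdhd1 was not called by its brighter probe set in any of the 4 chemicals, with -0.42 ± 0.12 in BF (adjusted p = 0.0594), where it was called lower after quantile normalization (0.00263) and centring (0.00431). Its dimmer probe set gave 6.59, 6.83 and 6.80 in BF livers, against 7.40, 7.43 and 7.59 in corn oil livers, a relative change of -0.84 ± 0.15 (adjusted p = 0.00183). Ftcd was called higher in NEDD, at 0.25 ± 0.089 (adjusted p = 0.00413), and in NDA, at 0.08 ± 0.089 (0.0308), without overlap in either, and neither call held on all 3 scales. The NDA call of Ftcd ended without feed control 28 (0.0523) or 29 (0.0979) and without NDA 4, where the relative change was -0.014 (0.194).

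The 9 genes of the urea cycle and its carriers had a median relative change of -0.31 in BF, with 1 called higher and 2 lower, beside 32.3% of all genes called. In NDA, NEDD and PCNB the medians were -0.07, -0.03 and -0.03, with 3, 0 and 0 called, all higher and none on all 3 scales. These counts stand beside 39.9%, 29.1% and 18.5% of all genes called, and 15.9%, 9.01% and 5% on all 3 scales. Of 13 genes of glutamine, glutamate, alanine and aspartate metabolism, 1 was higher and 4 lower in BF, all 5 on all 3 scales, and the median was -0.30, beside 32.3% of all genes called and 16.7% on all 3 scales. In NEDD the same list had 6 higher and 0 lower and a median of 0.33, with 1 call on all 3 scales, beside 29.1% and 9.01% of all genes.

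The strongest single responses of amino acid metabolism in BF were outside the urea cycle. Asns, asparagine synthetase, averaged 7.80 ± 0.42 in BF and 4.48 ± 0.17 in corn oil (SD), a relative change of 3.21 ± 0.16 (adjusted p = 1.08e-10). Csad, which makes the taurine precursor hypotaurine, averaged 9.74 ± 0.75 in BF and 6.50 ± 0.48 in corn oil, a relative change of 3.13 ± 0.35 (adjusted p = 4.56e-06). Lower in BF were the glutamine transporter Slc38a3 at -0.81 ± 0.14 (adjusted p = 0.00131), Slc38a4 at -0.43 ± 0.088 (0.0101), Cbs of the transsulfuration pathway at -0.78 ± 0.095 (7.88e-05), Agxt, which uses glyoxylate and alanine, at -0.70 ± 0.14 (0.00355) and Aldh4a1 of proline breakdown at -0.69 ± 0.13 (0.00271). These calls held on all 3 scales and without each single array; with the clock gene index in the model Slc38a3 (0.0593), Slc38a4 (0.155), Agxt (0.150) and Aldh4a1 (0.0964) did not pass. Without the 5 arrays brightest for 18S, Slc38a4 (0.292), Aldh4a1 (0.107) and Agxt (0.0662) did not pass, nor did Slc38a4 with RNA integrity in the model (0.0548).

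Other genes with periportal expression did not share 1 direction in BF. Of 12 tested, 3 were called higher and 3 lower, beside 32.3% of all genes called. Apoa4 and Cyp2f2 were higher, at 1.42 ± 0.15 and 0.50 ± 0.10 (adjusted p = 1.55e-06 and 0.000363), and Pck1, which starts gluconeogenesis, was lower at -0.74 ± 0.16 (0.00713). In NDA 3 were higher and 3 lower, beside 39.9% of all genes, with Apoa4 at -1.02 ± 0.15 (adjusted p = 0.000513). On all 3 scales 2 higher and 3 lower calls held in BF, beside 16.7% of all genes. In NDA 0 higher and 3 lower calls held, beside 15.9%. Of 15 genes with pericentral expression, 2 were higher and 3 lower in BF, and 2 were higher and 4 lower in NDA. On all 3 scales 1 higher and 3 lower held in BF, and 2 higher and 4 lower in NDA, beside the same shares.

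Among 15 regulators of amino acid breakdown, 10 were called higher and 1 lower in NEDD, of which 5 and 1 held on all 3 scales, beside 29.1% and 9.01% of all genes. The NEDD livers also differed from feed controls in the clock gene index, at 2.29 to 2.68 against -1.68 to 0.48, and in RNA integrity number, at 7.7 to 8.1 against 8.8 to 9.1. Corn oil 24 and 25 were near the NEDD livers in the index, at 2.25 and 2.40, and corn oil 24 had an RNA integrity number of 7.4. The part of the index and of RNA integrity in the regulators' values was not tested beyond the models given next. Ppargc1a, a coactivator of fasting genes, averaged 7.15 ± 0.36 in NEDD and 5.32 ± 0.59 in feed controls (SD), a relative change of 1.68 ± 0.36 (adjusted p = 0.00245). Foxo1, a factor restrained by insulin, was at 0.71 ± 0.14 (adjusted p = 0.00119). With the beta-actin ratio in the model Ppargc1a was at 1.09 (0.175) and Foxo1 at 0.44 (0.112). Ppargc1a also lost its call with the clock gene index (0.59, 0.118) or RNA integrity (1.37, 0.0769) in the model and without the 5 arrays brightest for 18S (1.29, 0.102). Sirt5, a mitochondrial deacylase that acts on Cps1, was higher in BF at 0.72 ± 0.12 (7.47e-05), in NDA at 0.63 ± 0.12 (0.000114) and in NEDD at 0.44 ± 0.12 (0.00252), by its brightest probe set. Its second probe set gave 0.15 in BF (0.161), 0.20 in NDA (0.0363) and 0.03 in NEDD (0.405).

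**Figure D4:**
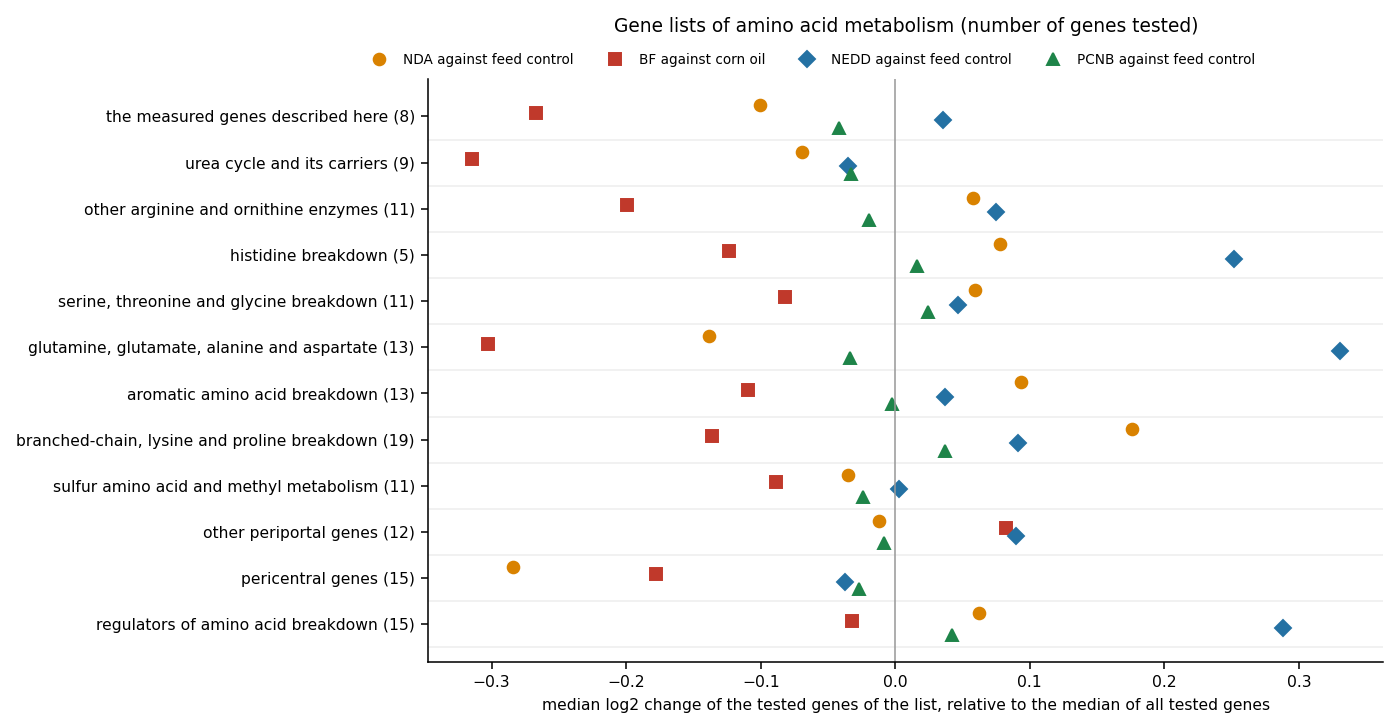
Median log2 change of the tested genes of each list relative to the median of all tested genes (x axis) for the 4 chemicals (symbols), with the number of genes tested in brackets. The BF medians of the measured genes (-0.27), the urea cycle list (-0.31) and the glutamine list (-0.30) lie left of 0.

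Summed marker signals of other liver cells lay lower in the same comparison as Cps1, except for stellate cells, where the arrays overlapped. The log2 of the summed signal of 10 Kupffer cell and macrophage markers was 11.38 to 11.70 in BF livers, against 11.85 to 12.17 in corn oil livers, with 3 of 10 called lower and 0 higher. For 8 sinusoidal endothelial markers it was 10.92 to 11.15 in BF, against 11.24 to 11.50 in corn oil, with 3 called lower. For 8 hepatocyte markers it was 16.92 to 16.97 in BF, against 16.97 to 17.01 in corn oil, with 1 called lower. For 4 lymphocyte markers it was 6.77 to 6.88 in BF, against 7.00 to 7.04 in corn oil, with 1 called lower. For 3 cholangiocyte markers it was 6.28 to 6.46, against 6.47 to 6.54, with 0 called. For 5 neutrophil markers it was 6.57 to 6.65, against 6.86 to 7.11, with 0 called. The lymphocyte, cholangiocyte and neutrophil sums were the dimmest of these lists. Genes with a mean signal under 5 had a median deposited change of -0.095 in BF, so low sums of dim markers do not show fewer of these cells. For 9 stellate cell and matrix markers it was 10.77 to 11.10, against 11.03 to 11.38, with 1 called lower. The counts of called markers stand beside 32.3% of all genes called in this comparison and 16.7% called the same way on all 3 scales. The part of the marker differences in the Cps1 result was not tested.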

How the data were processed

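The deposited values, per the series matrix table, are log2 signals that the authors computed for 45101 probe sets of an Affymetrix mouse expression array on each of 18 livers; how they were background-corrected, normalized and summarised is not stated in labels or headers, and the log2 unit was checked against the range of the values. Per the labels' protocols, RNA was isolated with Trizol and RNeasy from tissue kept in RNAlater. The number of arrays, 3 per group, limits the precision. The p-values test differences of group means against a spread between arrays, pooled over the 6 groups and moderated over all genes. With 1 array per liver, that spread holds differences between animals and in array processing together, within 1 study.

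The platform annotation gives 34945 probe sets to 1 gene, 932 to several and 9160 to none, and 64 are controls. Symbols of 34741 were updated through Entrez identifiers. A probe set was kept if it lay above its array's median in at least 3 arrays, which left 24338 (20712 with 1 gene); each gene was represented by its brightest probe set, giving 12169 genes. One model with 6 group means covered all 18 arrays (limma 3.58.1, R 4.3.3; empirical Bayes with trend, 12 residual degrees of freedom, Benjamini-Hochberg adjustment over all genes, or over all probe sets kept for further probe sets), for 10 comparisons. Simulated data were used to test the fit. Plots used Python 3.11.15 and matplotlib 3.10.9.

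The genes, lists and markers were chosen with earlier results of these data known. Named beside the 10 genes were fixed partners and, from each list, up to 3 called genes with the largest t and no overlap of arrays; the text keeps those that held on all 3 scales. Alternatives were quantile normalization, centring, no filter, only the groups compared, other probe sets per gene, RNA integrity, beta-actin ratio or clock gene index as a covariate, leaving out 5 arrays with high 18S signal, and leaving out each array. The probe set shared by Gm5424 and Ass1 as the measure of Ass1 was an alternative chosen after seeing the data.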

Additional observations from a re-analysis of the deposited data

Results flagged for a closer look

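The effects of BF and NDA, each against its own control, differed by the test of the difference itself in 4 of the genes named beside the urea cycle. Asns differed by 3.44 ± 0.22 on the log2 scale (limma adjusted p = 3.06e-08) and Csad by 4.04 ± 0.49 (adjusted p = 0.000182), both higher with BF. Apoa4 differed by 2.37 ± 0.21 (adjusted p = 2.91e-06), being called higher in BF and lower in NDA. It was called lower in NEDD too, a call that ended in 3 of 28 alternatives. Cyp1a2, a cytochrome P450 of pericentral hepatocytes, differed by -1.45 ± 0.18 (adjusted p = 0.000195). It was called higher in NDA, and in NEDD and PCNB as well. BF was given by gavage in corn oil and NDA in feed, and the part of the route in these differences was not tested. None of the 8 measured genes of the urea cycle and histidine breakdown passed that test.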

How the results depend on the processing

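No paired analysis was possible because the animal numbers in the labels differ between all groups. With 3 livers per group, changes about as small as the standard errors given are not resolved, and dim probe sets such as that of Ass1 are limited by signal over background. Counts of the 8 genes called changed as follows, the causes not being tested. In NDA (2 called), quantile normalization and leaving out the 5 arrays with high 18S signal gave 0, and using only the groups compared or the beta-actin covariate gave 1, while the second brightest probe set gave 3. Leaving out single arrays gave 1 to 2. Centring also gave 2 in NDA, but these were Cps1 and Otc called lower in place of Arg1 and Hal called higher. In BF (1 called), quantile normalization gave 3, centring 4, the mean of a gene's probe sets 2 and the second brightest probe set 3, while only the groups compared, RNA integrity, the clock index and leaving out the 5 arrays gave 0; single arrays gave 0 to 2. In NEDD (1 called), the second brightest probe set gave 2 and quantile normalization, only the groups compared, RNA integrity, the beta-actin covariate, the clock index and leaving out the 5 arrays gave 0; single arrays gave 0 to 2. Centring also gave 1 in NEDD, which was Otc called lower in place of Uroc1 called higher. In PCNB (0 called), the second brightest probe set and the clock index gave 1 each, and single arrays gave 0 to 1. In NEDD against PCNB (0 called), only the groups compared and the second brightest probe set gave 1 each, and single arrays gave 0 to 1. In NDA against NEDD and in positive against negative chemicals, both with 0 called, single arrays gave 0 to 1. Relative changes turned sign for Uroc1 in NEDD with the mean of its probe sets (-0.21), the second brightest (-0.81) and without the 5 arrays (-0.23), and for Uroc1 in PCNB with the second brightest (-0.76). With the second brightest probe set Slc25a12 in BF was at -0.0073 and Srr in NDA at -0.19. Ftcd in NDA was at -0.014 without the 5 arrays and at -0.014 without NDA 4, its range over single arrays being -0.014 to 0.14. Ass1 in NDA, not called, was at 0.12 without NDA 4. With the shared probe set standing for Ass1, the counts in all 10 comparisons were the same.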

Other observations

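Among genes of arginine use outside the cycle, Ddah1, which breaks down methylated arginines, was called higher in NDA at 0.81 ± 0.15 (relative log2 change ± SE, limma adjusted p = 0.000154) and in NEDD at 0.60 ± 0.15 (0.00252). Srm, spermidine synthase, was called higher in BF at 0.96 ± 0.19 (0.000518). Ddc, which decarboxylates aromatic amino acids, was called higher in BF at 1.16 ± 0.28 (0.00283) and in NDA at 1.09 ± 0.28 (0.00249), and it was higher in NDA than in NEDD by 1.63 ± 0.28 (0.00196). Slc38a2, an amino acid transporter, was called higher in NEDD at 0.78 ± 0.15 (0.00118) and lower in NDA than in NEDD, at -0.98 ± 0.15 (0.000769). These calls held on all 3 scales. Ddah1 in NEDD lost its call in 4 of 28 alternatives (adjusted p up to 0.119). Ddc in BF lost it with the clock gene index in the model (0.46, 0.132) and without the 5 arrays brightest for 18S (0.0844), and Ddc in NDA against NEDD in 3 alternatives, with 0.76 for the clock gene index (0.193). Slc38a2 lost it in 2 alternatives in NEDD (up to 0.0880) and in 3 in NDA against NEDD (up to 0.0865).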
